A study of Mus musculus with 86 samples.

Results

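The oligos described here are the members of a massively parallel reporter assay (MPRA) measured in neurites and in soma of mouse CAD cells that express TDP-43. Members were taken as every oligo listed in the 8 libraries labelled as MPRA without doxycycline, 4 from neurites and 4 from soma. They number 11955 oligos, which is every oligo of the pool, and 11912 of them had enough counts to be tested. The 8 libraries belong to a series of 86 samples that also holds RNA-seq of whole compartments, in vitro binding and RNA decay measurements. The pool tiles the 3′ UTRs of 16 mouse genes in windows of 260 nucleotides that start every 6 nucleotides, which gives 7389 wild-type tiles. Each tile that holds a TDP-43 motif (UGUGU and its shifted form GUGUG, or the related GUAUG) has a companion oligo in which the motif bases are replaced by their complements, and there are 4566 of these motif-mutated oligos. CAD is a mouse catecholaminergic neuronal line that extends neurites when serum is withdrawn. All groups share a genotype labelled TetOff TDP-43: per the study's methods the line was grown from a single CRISPR clone whose endogenous TDP-43 alleles are disrupted, and an HA-tagged transgene that doxycycline switches off is its sole source of functional TDP-43. The cells without doxycycline are called wild-type cells here and those given doxycycline are called knockout cells. The MPRA in knockout cells has 4 neurite and 4 soma libraries of its own and is used below only to show which wild-type patterns differ when TDP-43 is lost.

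TDP-43 is an RNA-binding protein of the nucleus and cytoplasm that prefers repeats of GU dinucleotides and controls splicing, stability and transport of its targets. Where an RNA sits in a neuron is often set by short elements in its 3′ UTR, which proteins read to anchor the RNA, carry it along microtubules or protect it from decay. In this assay each oligo sits in the 3′ UTR of a GFP reporter, cells grow on a porous membrane through which neurites but not cell bodies pass, and the reporter RNAs of each side are counted with unique molecular identifiers (UMIs). The question is which stretches of the UTRs move a reporter towards neurites or hold it in the soma, and whether that depends on the motifs.

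The following stretches of up to 30 bases lie in the tiles that the results turn on and are printed 5′ to 3′ in the sense of the RNA, with T for U. Positions are of mouse build mm10 (GRCm38), from a match of the motif pattern in the oligo names to the annotated transcripts. The first set shows the kind of sequence in tiles that were low in neurites. Capitals mark TDP-43 motifs, and the mutated line shows the same bases in the companion oligo.
Cacna1b tile 315 wild-type: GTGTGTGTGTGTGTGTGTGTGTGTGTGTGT
Cacna1b tile 315 mutated: CACACACACACACACACACACACACACACA
Fam160b2 tile 223 wild-type: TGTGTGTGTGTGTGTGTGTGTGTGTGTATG
Fam160b2 tile 223 mutated: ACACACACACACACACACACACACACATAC
Fam219a tile 158 wild-type: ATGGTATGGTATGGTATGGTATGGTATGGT
Fam219a tile 158 mutated: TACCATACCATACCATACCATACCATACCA
Spock2 tile 25 wild-type: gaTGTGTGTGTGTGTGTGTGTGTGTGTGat
These lie at chr2:24605002-24605031, chr14:70583764-70583793 and chr4:41519282-41519311, all on the minus strand, and at chr10:60131709-60131738 on the plus strand, and all are inside annotated 3′ UTRs. They hold long repeats of UG or of UAUGG.

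The second set shows the repeats in tiles that were high in neurites. Capitals mark GGATG in Ksr2, Wasf3 and Kank2 and GAGAG in Diras1, motifs that were chosen after the values had been seen.
Ksr2 tile 1482: tgtattcgtGGATGggtgaatGGATGGATG
Wasf3 tile 450: gatGGATGGATGagtGGATGgataataggt
Kank2 tile 250: tggacagatGGATGggtGGATGGATGGATG
Diras1 tile 284: gGAGAGAGAGAGtgtGAGAGAGtgtGAGAG
They lie at chr5:117774541-117774570 and chr5:146472972-146473001 on the plus strand and at chr9:21767394-21767423 and chr10:81020146-81020175 on the minus strand, again in the 3′ UTR. The neurite-high tiles of Tub held neither repeat, and 30 bases common to all of its tiles in the stretch described below are shown for contrast, from chr7:109031793-109031822 on the plus strand.
Tub tile 256: aatatgtgggtcatgctttagatatgaaga

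Depth was even across the 8 libraries. Each held 8117679 to 11328229 UMIs over the pool, 1.26 to 1.48 reads per UMI, and a median of 522 to 741 UMIs per oligo. The localization ratio (LR) is the log2 of the neurite level over the soma level of an oligo, so that an LR of 1 is a level 2 times as high in neurites. Levels are given as CPM, the usual counts-per-library-size unit, computed from UMIs after TMM scaling. Each library pools many cells, so fewer cells holding a reporter and less reporter per cell cannot be told apart. Nothing in the labels says that replicates came from separate cultures, so p-values measure the spread between these libraries.

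Most oligos had an LR close to that of the pool's middle, which the scaling sets near 0. The LR had a median of -0.00014, 5% of oligos lay under -0.19 and 5% over 0.19, and the median standard error (SE) was 0.058. With edgeR's quasi-likelihood test at a Benjamini-Hochberg adjusted p of 0.01, 323 oligos were higher in neurites, which is 2.71% of those tested, and 157 were lower, which is 1.32%. An unadjusted p under 0.05 was reached by 2206 oligos. The libraries of the 2 compartments did not overlap in 470 of the 480 oligos called, and did not overlap in 11.8% of all oligos tested. The changes towards neurites were much larger than those towards the soma: 144 oligos had an LR of at least 1 and 38 of at least 2, while no called oligo reached -1. The LR ran from -0.98 to 3.11. The count of lower oligos rested in part on single libraries, falling to 102 without soma replicate 1 and to 75 without soma replicate 2.

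The motif classes differed little in their middle and strongly in their tails. The median LR was -0.0012 over 4554 wild-type tiles with a motif, 0.0044 over 4547 mutated oligos and -0.0070 over 2811 wild-type tiles without a motif. Motif tiles had 101 oligos higher and 125 lower, mutated oligos had 95 higher and 8 lower, and tiles without a motif had 127 higher and 24 lower. Lower oligos were thus mostly motif tiles, and the largest group of higher oligos held no motif.

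Calls of wild-type tiles clustered along the UTRs. A region is defined here as at least 5 neighbouring tested tiles called in the same direction with a mean LR at least 0.25 from 0. There were 9 regions higher in neurites in 6 UTRs, which held 195 of the 228 wild-type tiles called higher. There were 10 regions lower in neurites in 5 UTRs, which held 75 of the 149 called lower. The 5 UTRs with soma-side regions (Cacna1b, Fam160b2, Fam219a, Kcnj12 and Spock2) and the 6 with neurite-side regions (Diras1, Kank2, Ksr2, Synj2bp, Tub and Wasf3) had none in common. Neighbouring tiles share all but 6 of their bases and are no replicates of one another.

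The strongest neurite-side region lay near the 3′ end of the UTR of Ksr2, a scaffold protein of the MAP kinase cascade. Tiles 1466 to 1511, 46 tiles over chr5:117774347-117774876, had a mean LR of 1.84 and ranged from 0.46 to 3.0. The mean over the region was between 1.76 and 1.86 in each neurite library taken against the mean of the soma libraries. The highest wild-type tile of the whole pool was Ksr2 tile 1482, printed above. Its 4 neurite libraries held 187.5, 219.1, 205.7 and 186.6 CPM and its soma libraries 26.0, 25.3, 25.4 and 22.9 CPM. Every neurite library was far above every soma library. The LR was 3.0 ± 0.06 (SE, n = 4 per compartment; edgeR adjusted p = 2.2e-16).

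Within the GGATG repeat of Ksr2 the LR differed between an upstream run of tiles that also held a motif and the tiles after it, which held none. Motif and position along the UTR cannot be told apart in this comparison. The stretch set out here runs from the first tile of the unbroken run called higher in knockout neurites to the end of the region, so its limits were drawn from calls. In wild-type cells the 39 tiles without a motif, 1473 to 1511, with 3 to 14 copies of GGATG, had a median LR of 1.96 and all 39 were called higher. The 57 tiles before them, 1416 to 1472, hold 6 to 18 copies and also a TDP-43 motif, and there the median was 0.20 with 14 called higher. Tile 1423, with a single 5-base motif, had the larger of the falls on mutation in this UTR. Its neurite libraries held 83.6, 90.2, 91.1 and 79.3 CPM and its soma libraries 74.1, 70.5, 68.2 and 63.5 CPM, with no overlap and an LR of 0.32 ± 0.06. The mutated oligo had 72.0, 70.1, 76.6 and 73.3 CPM in neurites and 77.7, 72.5, 71.5 and 75.4 CPM in soma, an overlap, and an LR of -0.02 ± 0.05. The change of -0.34 ± 0.07 was called (limma adjusted p = 0.006), and only 2 Ksr2 pairs changed, both downwards.

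Wasf3, which encodes a WAVE-family regulator of actin branching, had 3 neurite-side regions within 67 tiles. Tiles 398 to 408 had a mean LR of 0.80, tiles 418 to 424 of 0.93, and tiles 430 to 464 of 1.24, over chr5:146472660-146473315 in all. The highest was tile 450 with 264.1, 309.9, 294.2 and 281.1 CPM in neurites against 69.4, 66.5, 66.9 and 62.9 CPM in soma. The compartments did not overlap, and the LR was 2.11 ± 0.05 (edgeR adjusted p = 1.3e-15). Of the 55 Wasf3 tiles called higher, 49 held no motif, and no Wasf3 pair changed on mutation.

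Kank2, which encodes an ankyrin-repeat protein linked to the actin cytoskeleton, had neurite-side regions at tiles 239 to 251 (mean LR 0.80) and 268 to 283 (mean LR 0.59) over chr9:21767053-21767576. Its highest tile, 250, held 46.0, 37.7, 33.9 and 32.3 CPM in neurites and 18.4, 18.3, 18.2 and 17.6 CPM in soma. All neurite libraries were above all soma libraries, with an LR of 1.05 ± 0.10 (edgeR adjusted p = 8.0e-07).

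A GGATG repeat was common to these 3 UTRs. Matches were counted on the sense strand with overlaps allowed, over the 6586 tested wild-type tiles whose sequence could be placed. At least 1 copy was held by 29.3% of tiles and at least 5 copies by 3.63%, or 239 tiles, all in Kank2, Ksr2 and Wasf3. Of those 239, 134 were higher in neurites and none lower, with a median LR of 0.52. Of the 6347 tiles with fewer copies, 93 were higher and 108 lower, with a median of -0.0061. By UTR the tiles with at least 5 copies counted 33 higher of 56 in Kank2, 50 of 100 in Ksr2 and 51 of 83 in Wasf3. The LR did not rise steadily with copies, with medians of 0.13 at 5 to 6, 0.65 at 7 to 9 and 0.56 at 10 or more. Of the 141 tiles with 10 or more copies 81 were higher, while Wasf3 tiles 416 and 417, with 19 and 17 copies, had uncalled LRs of -0.56 and -0.76. Across all placed tiles of a UTR the Spearman correlation of LR with copies was 0.39 in Kank2, 0.32 in Wasf3 and 0.06 in Ksr2. A TDP-43 motif was held by 128 of the 239 tiles, of which 45 were higher, and 89 of the 111 without one were higher. By UTR 14 of 64 motif tiles were higher in Ksr2, 6 of 24 in Wasf3 and 25 of 40 in Kank2, against 36 of 36, 45 of 59 and 8 of 16 without a motif. In the 64 Ksr2 pairs, mutation of the motifs raised no LR past the threshold, and the median change was -0.25. The same tiles are rich in purines, and of the 125 tiles with over 70% purine, 71 were higher and none lower.

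Diras1 encodes a small GTPase of the Ras family. Its tiles 261 to 292, over chr10:81019912-81020357, had a mean LR of 1.55 and ranged from 0.31 to 2.73. The mean lay between 1.43 and 1.59 in each neurite library. Tile 284 was the highest of the UTR, with 187.5, 238.0, 250.5 and 210.3 CPM in neurites and 34.5, 31.7, 31.6 and 35.7 CPM in soma. The compartments were far apart, with an LR of 2.73 ± 0.08 (edgeR adjusted p = 2.9e-14). Upstream of that region tile 236 was also high and held 43.0, 88.8, 71.8 and 65.4 CPM in neurites and 19.8, 20.9, 27.5 and 34.0 CPM in soma. Its neurite libraries varied by more than 2-fold yet stayed above the soma libraries, and the LR was 1.38 ± 0.18 (edgeR adjusted p = 3.6e-05).

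The Diras1 tiles hold GAGAG repeats, here interleaved with GU motifs. A GAGAG match can share its last G with a GUGUG motif. At least 1 copy was held by 34.5% of the placed tiles and at least 5 copies by 3.40%, or 224 tiles in Cacna1b, Diras1, Fam160b2 and Spock2. Among these, Diras1 had 35 of 68 higher and none lower, Fam160b2 had 19 of 58 lower and none higher, and the 45 tiles of Cacna1b and 53 of Spock2 had no call. In wild-type cells the direction of tiles with this repeat thus differed by UTR. The tiles also differed in their motifs, with longest intervals of 36 to 44 bases in the Fam160b2 region and 6 to 13 in the Diras1 region. In knockout cells the median LR of tiles with at least 5 copies was 2.87 in Diras1, 3.01 in Fam160b2, 1.19 in Spock2 and -0.11 in Cacna1b. In wild-type cells mutation of the motifs in these tiles raised 22 of 58 Fam160b2 pairs and lowered none. Of 68 Diras1 pairs 12 rose and 17 fell, of 53 Spock2 pairs 1 rose, and of 27 Cacna1b pairs none changed. Mutation also removed copies of GAGAG, from 15 to 10 at Diras1 tile 284. The part of GAGAG by itself was not tested.

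Tub encodes the tubby protein of neurons. Its tiles 248 to 272, over chr7:109031606-109032009, had a mean LR of 0.88 and held no repeat of either kind. Tile 256 was the highest, with 402.9, 467.8, 450.2 and 439.0 CPM in neurites and 109.4, 106.2, 102.9 and 97.1 CPM in soma. The compartments were separated by a wide gap, and the LR was 2.08 ± 0.05 (edgeR adjusted p = 1.1e-15). The LR changed abruptly between neighbours that share all but 6 bases. It was 0.65 ± 0.05 at tile 253 and 2.01 ± 0.05 at the next tile, then 1.23 ± 0.05 at tile 257, 0.57 ± 0.07 at tile 258 and 1.74 ± 0.05 at tile 261. The median purine share over the region was 57.3%.

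Synj2bp, which encodes a protein of the outer mitochondrial membrane, had the weakest neurite-side region, tiles 176 to 185 with a mean LR of 0.29 over chr12:81501415-81501728. Tile 185 held 23.9, 18.3, 18.1 and 21.2 CPM in neurites and 13.1, 16.02, 15.4 and 14.1 CPM in soma. The compartments did not overlap but lay close, with an LR of 0.48 ± 0.11 (edgeR adjusted p = 0.0099). None of the 10 tiles held a motif.

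On the soma side the lowest tiles were in Kcnj12, which encodes an inwardly rectifying potassium channel. It had 3 regions, at tiles 378 to 386 with a mean LR of -0.52, 394 to 409 with -0.73 and 411 to 417 with -0.50. Tile 400 was the lowest of the pool, with 13.6, 15.97, 13.4 and 16.5 CPM in neurites and 35.3, 29.7, 26.2 and 25.3 CPM in soma. Each neurite library was below each soma library, and the LR was -0.98 ± 0.12 (edgeR adjusted p = 9.8e-06). The motif intervals in the oligo's name include one of 53 bases. Sequence and coordinates of these tiles are not given because they lie past the end of the transcript used for placement.

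Fam219a had regions at tiles 155 to 160 and 162 to 166, each with a mean LR of -0.53, over chr4:41519089-41519414. Tile 171 was its lowest with non-overlapping libraries: 9.3, 9.6, 10.2 and 11.7 CPM in neurites against 19.97, 18.3, 17.7 and 14.8 CPM in soma. The LR was -0.80 ± 0.12 (edgeR adjusted p = 0.00016). Its longest motif interval covers 35 bases of a UAUGG repeat, unlike the UG repeats of Cacna1b, Fam160b2 and Spock2.

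Cacna1b encodes the pore-forming subunit of the N-type calcium channel of presynaptic terminals. It had regions at tiles 298 to 304 (mean LR -0.39) and 314 to 318 (mean LR -0.55) over chr2:24604767-24605146. Tile 315 held 34.6, 44.3, 48.2 and 41.2 CPM in neurites and 78.5, 69.5, 63.9 and 49.9 CPM in soma. The highest neurite library was just below the lowest soma library, and the LR was -0.64 ± 0.11 (edgeR adjusted p = 0.0012).

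Fam160b2 had 1 region, tiles 218 to 227, with a mean LR of -0.58 over chr14:70583528-70583841. Tile 223 held 61.7, 56.5, 73.3 and 72.9 CPM in neurites and 123.9, 116.3, 82.7 and 90.7 CPM in soma, without overlap, and had an LR of -0.64 ± 0.11 (edgeR adjusted p = 0.00081). Spock2, which encodes an extracellular matrix proteoglycan, had regions at tiles 22 to 26 and 32 to 36 with mean LRs of -0.33 and -0.32 over chr10:60131508-60131851, at the start of its UTR. Tile 41 was the lowest of its called tiles with non-overlapping libraries, with 36.9, 38.5, 38.9 and 40.1 CPM in neurites and 58.5, 60.9, 50.3 and 44.0 CPM in soma (LR -0.47 ± 0.09, edgeR adjusted p = 0.0015).

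In these tiles the soma libraries disagreed among themselves more than elsewhere. Over the 125 motif tiles called lower, the median level relative to the mean of the 4 soma libraries was 0.19, 0.10, -0.089 and -0.18 in soma replicates 1 to 4 on the log2(CPM + 1) scale, and -0.51 to -0.40 in the neurite libraries. Over the 6988 wild-type tiles not called, the soma libraries differed by 0.0027. The number of soma-side regions was 10 with all libraries and fell without some of them: to 5 without neurite replicate 1 or 4, to 3 without neurite replicate 3, to 2 without soma replicate 1 and to 1 without soma replicate 2. The part that these library differences had in the result was not tested.

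Soma-side tiles held the longest motif runs of the pool. A tile's longest motif interval is the longest unbroken stretch covered by motifs that overlap or abut. Over 20 bases, a threshold chosen after the values had been seen, there were 323 tiles, all in the 5 UTRs with soma-side regions. Of these, 113 were lower in neurites and none higher, with a median LR of -0.28. Here too the soma libraries disagreed. The median level of the 323 tiles, relative to the mean of the soma libraries on the log2(CPM + 1) scale, ran from -0.16 to 0.17 in soma libraries. In neurite libraries it ran from -0.33 to -0.22. Of the 4231 motif tiles with intervals up to 20 bases, 12 were lower and 101 higher, with a median of 0.0049. The median LR went from 0.014 at 5 bases to -0.0034 at 6 to 8, 0.016 at 9 to 12, -0.050 at 13 to 20, -0.25 at 21 to 40 and -0.33 over 40 bases. By UTR the tiles over 20 bases had a median LR of -0.18 in Cacna1b, -0.23 in Fam160b2, -0.44 in Fam219a, -0.53 in Kcnj12 and -0.24 in Spock2. Across 4554 motif tiles the Spearman correlation of LR with the longest interval was -0.30, and with the number of motif intervals -0.25, tiles being overlapping and from the same libraries.

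A second, smaller soma-side group held no motif. The 24 tiles without a motif that were lower had a median LR of -0.33. The 19 of them with a placed sequence were 41.5% C and 31.9% purine in the median, against 25.8% C and 47.3% purine in the 2357 placed tiles without a motif that were not called. They lay in Spock2 (12 tiles), Fam219a and Soga3 (4 each), Diras1 (3) and Synj2bp (1). Soga3 tile 50 was the lowest of them, with 8.6, 8.0, 7.8 and 11.1 CPM in neurites and 13.6, 12.8, 12.3 and 13.9 CPM in soma. The compartments did not overlap, the counts were low at 64 to 145 UMIs per library, and the LR was -0.57 ± 0.12 (edgeR adjusted p = 0.007). Diras1 tile 35 held 42.2, 43.0, 42.3 and 41.8 CPM in neurites and 56.3, 57.7, 53.2 and 46.8 CPM in soma, an LR of -0.34 ± 0.07.

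Mutation of the motifs was tested within each tile, as the change in LR from the wild-type to the mutated oligo. Of 4547 pairs the LR rose in 133 (2.93%) and fell in 21 (0.462%), with limma on the log2 ratio of the pair in each library and an adjusted p of 0.01. The count of rises depended on single libraries, with 75 without neurite replicate 4, 63 without soma replicate 1, 55 without soma replicate 2 and 57 without soma replicate 3. In tiles that were lower in wild-type neurites the direction was one-sided. Of 125 such pairs, 81 rose and none fell. The median LR was -0.49 for the wild-type tiles and 0.12 for the mutated oligos, and 4 mutated oligos were still called lower. The wild-type calls and this change share the wild-type oligo's counts.

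In the soma-side tiles with the largest rises the mutated oligo was not called in either direction. Mutated Cacna1b tile 315 held 8.5, 6.0, 6.4 and 9.4 CPM in neurites and 5.6, 4.7, 4.5 and 5.9 CPM in soma, a change of 1.08 ± 0.20 (limma adjusted p = 0.0051). The mutated oligo was far less abundant than its wild-type tile in both compartments, and its own LR of 0.56 ± 0.17 was not called. Mutated Fam160b2 tile 223 held 11.7, 7.1, 8.9 and 8.2 CPM in neurites and 7.0, 8.1, 3.7 and 7.1 CPM in soma, which overlap at an LR of 0.51 ± 0.20, and the change was 1.06 ± 0.16 (limma adjusted p = 0.00097).

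Kcnj12 tile 394 showed the same at higher counts of its mutated oligo. The wild-type tile held 8.8, 14.1, 15.7 and 16.1 CPM in neurites and 32.8, 28.5, 21.6 and 22.8 CPM in soma (LR -0.96 ± 0.16). The mutated oligo held 50.3, 45.8, 51.1 and 47.1 CPM in neurites and 48.4, 45.5, 39.4 and 45.3 CPM in soma, where the compartments overlap, and the change was 1.04 ± 0.17 (limma adjusted p = 0.0015). In all 10 soma-side regions none of the mutated oligos was called in either direction, and their mean LR per region was between 0.056 and 0.37. Rises were counted in 31 pairs of Fam160b2, 28 of Kcnj12, 19 of Cacna1b, 17 of Spock2 and 8 of Fam219a.

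Neurite-side tiles did not share one direction on mutation. Of 101 pairs whose wild-type tile was higher in neurites, 18 rose, 20 fell, and 68 mutated oligos were still higher. The median LR was 0.75 for the wild-type tiles and 0.49 for the mutated oligos. In the UTRs with neurite-side regions, rises were in Kank2 (16 pairs) and Diras1 (13), and falls in Diras1 (17), Ksr2 (2), Tub (1) and Kank2 (1).

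In Kank2 tile 250 a single 5-base motif lies beside the GGATG repeat, at chr9:21767260-21767289, minus strand, with the motif bases in capitals.
Kank2 tile 250 wild-type: ggtggacggatgaGTGTGgggtgggtggat
Kank2 tile 250 mutated: ggtggacggatgaCACACgggtgggtggat
From tile 247, the first of the region with a motif, to tile 267, the last before the second region, 15 of 21 pairs rose and none fell. The median LR over these pairs was 0.47 for the wild-type tiles, of which 7 were called higher, and 1.16 for the mutated oligos, of which 19 were. Mutated tile 250 held 109.9, 78.1, 84.3 and 78.0 CPM in neurites and 25.7, 23.9, 23.2 and 23.4 CPM in soma, a level in neurites far above that of soma in each library. The change was 0.81 ± 0.08 (limma adjusted p = 2.7e-05).

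Kank2 tile 255 had the largest rise of that UTR. The wild-type tile held 35.9, 23.3, 24.2 and 23.8 CPM in neurites and 20.9, 20.1, 19.5 and 17.8 CPM in soma, and its LR of 0.47 ± 0.13 was not called. The mutated oligo held 66.8, 47.8, 50.3 and 53.5 CPM in neurites and 21.5, 23.4, 21.8 and 20.3 CPM in soma, for a change of 0.87 ± 0.09 (limma adjusted p = 3.0e-05). At the other edge of the repeat the direction differed: tile 279 went from 146.5, 156.3, 172.1 and 144.2 CPM in neurites and 86.1, 87.7, 86.9 and 89.0 CPM in soma to 102.0, 106.7, 113.5 and 104.9 CPM and 81.4, 75.5, 80.6 and 80.6 CPM. Both oligos were higher in neurites in every library, and the change was -0.39 ± 0.05 (limma adjusted p = 0.00019).

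In Diras1 the direction of the change turned along the UTR. The pairs of tiles 259 to 292 are split here by their longest motif interval, a split chosen after the values had been seen, and the stretch starts where the called pairs before the region start. Tiles 259 to 272 hold an interval of 13 bases, and 12 of these 14 pairs rose while none fell, with a median LR of 0.89 for wild-type tiles and 1.94 for mutated oligos. In tiles 282 to 292 the longest interval is 6 bases, and all 11 pairs fell, from a median of 1.84 to 0.012. Of the 9 pairs between, 4 fell and none rose. Tile 265, which rose, lies partly at chr10:81020267-81020296, and tile 282, which fell, at chr10:81020143-81020172. Both stretches are on the minus strand, and capitals mark motifs.
Diras1 tile 265 wild-type: ggagagtgaGTGTGTGTGTGTGaaggggga
Diras1 tile 265 mutated: ggagagtgaCACACACACACACaaggggga
Diras1 tile 282 wild-type: gagagagaGTGTGagagaGTGTGagagaga
Diras1 tile 282 mutated: gagagagaCACACagagaCACACagagaga
In tile 282 the motifs share their outer G bases with the GAGAG run around them.

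Tile 265 held 106.3, 97.7, 103.5 and 99.5 CPM in neurites and 49.0, 50.4, 44.4 and 43.6 CPM in soma (LR 1.12 ± 0.06). Its mutated oligo held 96.0, 89.7, 83.6 and 90.1 CPM in neurites and 9.8, 11.6, 10.7 and 9.6 CPM in soma, and its LR of 3.11 ± 0.07 was the highest of the pool. The soma level of the mutated oligo was the lower of the pair by a wider margin than its neurite level, and the change was 1.89 ± 0.08 (limma adjusted p = 1.3e-09).

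Tile 282 held 163.1, 177.8, 179.3 and 154.2 CPM in neurites and 28.1, 31.3, 34.4 and 30.6 CPM in soma (LR 2.43 ± 0.06). Its mutated oligo held 28.0, 22.5, 27.9 and 27.0 CPM in neurites and 17.3, 21.7, 20.9 and 18.4 CPM in soma, which come close without overlapping. The change of -1.99 ± 0.10 was the largest fall of the pool (limma adjusted p = 1.1e-08). Mutated tile 236 held 50.2, 49.5, 49.5 and 56.2 CPM in neurites and 56.7, 56.6, 58.0 and 64.4 CPM in soma, a change of -1.54 ± 0.18 (limma adjusted p = 0.00013).

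In Tub a single pair fell, that of the tile 2 steps before tile 256, whose motif is its only one and lies at the tile's 5′ end, chr7:109031642-109031671 on the plus strand.
Tub wild-type: tgccTGTGTGccatctgtgagaagcttctt
Tub mutated: tgccACACACccatctgtgagaagcttctt
The wild-type tile held 566.2, 663.5, 664.3 and 628.3 CPM in neurites and 148.0, 157.2, 166.1 and 154.1 CPM in soma. The mutated oligo held 145.0, 145.7, 155.0 and 140.7 CPM in neurites and 80.0, 82.6, 85.8 and 74.1 CPM in soma. Both were higher in neurites without overlap, with LRs of 2.01 ± 0.05 and 0.86 ± 0.05, and the change was -1.15 ± 0.05 (limma adjusted p = 2.9e-09). Tile 255, which lacks the motif, had an LR of 1.80 ± 0.05. In tile 253, where the same motif lies 6 bases further in, the change was -0.05 and was not called.

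The remaining UTRs had few calls. Lars2, which encodes the mitochondrial leucyl-tRNA synthetase, had 8 wild-type tiles higher and 1 lower of 155. Its tile 64 held 89.5, 86.0, 84.8 and 84.8 CPM in neurites and 66.0, 67.8, 65.5 and 63.7 CPM in soma (LR 0.39 ± 0.05, edgeR adjusted p = 8.1e-06) and the mutated oligo had an LR of 0.40 ± 0.06. The change was 0.0035 ± 0.064, far from the threshold. Sos2, which encodes an exchange factor for Ras, had 1 tile lower of 252. Lrrc47 and Ssc5d had no call among 263 and 61 wild-type tiles, though 1 Lrrc47 pair rose on mutation. By UTR the median LR of wild-type tiles lay between -0.046 in Ssc5d and 0.034 in Wasf3.

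The same oligos were set beside their LR in knockout cells. The test of the change uses all 16 MPRA libraries and so shares the wild-type libraries with the calls above. The knockout neurite libraries were more skewed, with a median of 355 to 428 UMIs per oligo and a largest count of 25956 to 32009. A higher LR with doxycycline than without it was found for 614 oligos (5.15% of those tested) and a lower LR for 33 (0.277%). Within knockout cells 694 oligos were higher in neurites (5.83%) and 119 lower (0.999%). Of the 157 oligos lower in wild-type neurites, 95 had a higher LR with doxycycline and none a lower one, and the median went from -0.44 to 0.13. The 24 tiles without a motif among them had medians of -0.33 and -0.39, and none changed.

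The soma-side regions were not alike in this respect. In both Cacna1b regions, in Fam160b2, in both Fam219a regions and in both Spock2 regions every tile had a higher LR with doxycycline. In Fam160b2 the mean LR over the region went from -0.58 to 1.26. In Kcnj12 tiles 378 to 386 the mean went from -0.52 to -0.50 and no tile changed, in tiles 394 to 409 the change was called for 5 of 16 tiles, and in tiles 411 to 417 all 7 tiles changed, to a mean of 1.02. On mutation all 9 pairs of tiles 378 to 386 rose.

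Of the 323 oligos higher in wild-type neurites, 174 had a higher LR with doxycycline and 31 a lower one, and the median went from 0.90 to 1.98. The Ksr2 stretch was delimited by calls in knockout neurites, so its values there are a description. In the 57 Ksr2 tiles that hold the GGATG repeat and a motif the median LR went from 0.20 to 4.68, and all 57 changed. In the 39 Ksr2 tiles with the repeat and no motif it went from 1.96 to 3.38, and 24 changed. Wasf3 tile 450 went from 2.11 to 2.07, a change that was not called. Among wild-type tiles Tub went the other way: 17 of the 25 tiles of its region had a lower LR in knockout cells, and the mean went from 0.88 to 0.41. Of the 95 motif-mutated oligos higher in wild-type neurites, 39 had a higher LR with doxycycline and 14 a lower one. In Diras1 tiles 259 to 272, 8 of the 14 mutated oligos had a lower LR and none a higher one. Mutated Diras1 tile 265, the highest oligo of the pool, went from 3.11 to 1.98.

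In vitro binding of the pool gave a separate view of the same oligos. R is the share of reads of an oligo bound by 500 nM recombinant TDP-43 over its share in the input RNA. The median R was 5.48 in the motif tiles called lower, with 6.41 and 4.59 in the 2 binding replicates, and 0.82 in motif tiles not called. It was 4.19 in motif tiles called higher and 4.22 in tiles called higher that hold no motif, against 0.49 in tiles without a motif that were not called. High R was thus found in tiles of both directions, including tiles without the listed motifs. Among soma-side regions the median R ran from 1.64, in Fam160b2 and in Kcnj12 tiles 394 to 409, to 8.04 in Spock2 tiles 32 to 36. At Kcnj12 tile 400, the lowest tile of the pool, R was 0.27, with 0.21 and 0.34 in the 2 binding replicates. That value and the identical median of the 2 lowest regions are of the kind that the added 0.5 gives to oligos with almost no reads. They are therefore no measure of weak binding. The called tiles had few reads in the binding input, with medians of 42 and 25 for lower and higher motif tiles and 6 and 20 for lower and higher tiles without a motif, against 383.5 and 352 for tiles not called. Over tiles with at least 100 input reads, a limit set after the values had been seen, the median R was 6.03 in 41 lower and 3.38 in 34 higher motif tiles and 0.82 in 3402 not called. Without a motif it was 2.44 in 34 higher tiles and 0.47 in 1997 not called. Across the 4554 motif tiles the Spearman correlation of LR with R was -0.18, over tiles that overlap.

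Decay of the reporters was measured by metabolic labelling for 24 hours with a chase of 12 hours, in wild-type cells. The ratio of the T-to-C conversion rate at 12 hours to that at 0 hours, which is lower for RNAs replaced faster, had a median of 0.579 in motif tiles called lower, 0.548 in motif tiles called higher and 0.611 in motif tiles not called. In tiles without a motif it was 0.708 in those called lower, 0.588 in those called higher and 0.631 in those not called. The pooled medians of called tiles were thus below those of tiles not called, except for the lower tiles without a motif. The quartiles overlapped, at 0.538 to 0.625 in motif tiles called lower and 0.561 to 0.658 in motif tiles not called. By region the median ran from 0.447 in Synj2bp, on the neurite side, to 0.810 in Fam160b2, on the soma side. The order of the pooled medians therefore did not hold in every region. The rate was 1.94% and 1.93% in the 2 libraries at 0 hours and 1.17% to 1.33% in the 3 at 12 hours.

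RNA-seq of the same line without doxycycline, with 3 libraries per compartment, gave the LR of the genes that the UTRs come from. Of 15810 genes tested, 3774 (23.9%) were higher and 3220 (20.4%) lower in neurites relative to the TMM scale. Of the 16 tiled genes, 5 were higher and 8 lower. Cacna1b, Fam160b2 and Spock2 had endogenous LRs of -0.88 ± 0.08, -0.99 ± 0.11 and -0.97 ± 0.07. Fam219a was at -0.53 ± 0.07, and Kcnj12 at -0.12 ± 0.08 was not called. Of the UTRs with neurite-side regions, Synj2bp was at 1.01 ± 0.08, Tub at 0.60 ± 0.09, Diras1 at 0.43 ± 0.08 and Kank2 at 0.40 ± 0.08, while Wasf3 at 0.06 ± 0.06 was not called and Ksr2 was lower at -0.58 ± 0.11. The higher directions depend on the TMM scale, because in the deposited TPM values, which scale each library to the same sum, 15 of the 16 genes were lower in every neurite library than in every soma library. Lars2 was the exception at 2.53 ± 0.57, and its reads are uncertain since part of the gene resembles mitochondrial ribosomal RNA. The neuronal markers Tubb3, Snap25, Gap43, Stmn2 and Map2 were present in all 6 libraries and Nefl was at or near 0 TPM, as were Gfap, Aqp4, Cx3cr1, Csf1r and Mog, markers of glia. The fibroblast markers Col1a1 and Pdgfra reached at most 2.00 and 0.852 TPM, and of the catecholamine enzymes Th reached 3.18, Ddc 1.06 and Dbh 19.2 TPM.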

How the data were processed

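The deposited MPRA files list, per oligo, reads and unique UMIs; the authors trimmed reads with cutadapt, assigned them to oligos with bowtie2 (versions not given in the sources used here) and counted distinct 8-base UMIs, and these UMI counts were used as deposited. LR was tested with edgeR 4.0.16 (TMM, quasi-likelihood, filterByExpr, R 4.3.3), the pairs with limma 3.58.1 on log2(CPM + 1), at a Benjamini-Hochberg adjusted p of 0.01, and DESeq2 1.42.0 was an alternative. SE is the fold change over the root of F. In binding (R), 0.5 was added to each deposited read count, unread oligos included; decay ratios needed 1000 T positions per library. Estimated counts per transcript, made by the authors with Salmon, were summed to genes and rounded; their TPM were only listed. Tiles were placed on annotated mm10 transcripts by their motif pattern: 6600 of 7389 have sequence, and all 1914 compared positions equalled listed ones. Sequences come from annotated transcripts. On simulated counts (neurite against soma, 11912 oligos), 98.5% of oligos changed 2-fold were called, 91.0% of those changed 1.5-fold and 68.7% of those changed 1.25-fold. For the change on mutation the shares were 95.5%, 89.6% and 34.3%. For the change in knockout cells they were 100%, 79.1% and 23.9%, so small changes of either kind were often missed. Members and lists were chosen with earlier results of these data known. Named tiles are the highest and lowest non-overlapping called tile of each UTR, the 5 highest and 5 lowest such tiles of the pool and the 5 largest called rises and falls on mutation, each skipping a tile that overlaps one already taken, and the middle tile of each region; others are given as ranges. The compartments were compared over 4 libraries each; libraries of one group differed beyond sampling noise. The settings tried were other scalings, filters, tools, pseudocounts, read counts, a correction for shared UMIs, a replicate term and leaving out each library. One gene of the marker lists is not reported here.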

Additional observations from a re-analysis of the deposited data

Results flagged for a closer look

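Of 94 groups of 4 libraries of the named oligos, 4 held 1 library that stood apart from the others of its group by Dixon's test, where chance gives about 1 in 20. Ksr2 tile 92 had 49.8 CPM in neurite replicate 4 against 56.1 to 56.5 CPM in the others, and Kank2 tile 255 had 35.9 CPM in neurite replicate 1 against 23.3 to 24.2 CPM. Kcnj12 tile 401 had 20.9 CPM in neurite replicate 4 against 17.1 to 17.5 CPM, and Ksr2 tile 1488 had 103.9 CPM in neurite replicate 1 against 115.2 to 117.6 CPM.

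The LR differed between wild-type and knockout cells, by edgeR's interaction term over all 16 MPRA libraries, for 614 oligos that were higher and 33 that were lower with doxycycline, and for 31 of the 47 named tiles. All values here are the LR in knockout cells minus that in wild-type cells. In the UTRs with soma-side regions the change was 0.85 at Cacna1b tile 315, 0.50 at tile 301 and 0.64 at tile 316. It was 1.89 and 1.65 at Fam160b2 tiles 223 and 222, and 0.84, 1.12 and 1.05 at Fam219a tiles 171, 157 and 164. Kcnj12 changed by 0.50 at tile 401 and 2.21 at tile 414, and Spock2 by 0.53 at tile 41, 1.5 at tile 24 and 0.53 at tile 34.

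In the UTRs with neurite-side regions Diras1 changed by 0.64 at tile 284, 3.29 at tile 265, 0.80 at tile 282 and 2.42 at tile 276. Kank2 changed by 2.39 at tile 250, 2.86 at tile 255, 0.59 at tile 279, 1.13 at tile 245 and 1.30 at tile 275. Ksr2 changed by 1.40 at tile 1482, 2.58 at tile 1423 and 1.80 at tile 1488, and Wasf3 by 1.94 at tile 403, 3.61 at tile 421 and 0.89 at tile 447. The 3 named wild-type tiles with a lower LR in knockout cells were all in Tub, by -0.76 at tile 256, -0.85 at the tile 2 steps before it and -0.74 at tile 260.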

How the results depend on the processing

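Of the counts over all oligos, those of higher oligos kept within 1.5 times of the value given under each alternative run, from 289 to 341 when leaving out 1 library. At an adjusted p of 0.05, 304 oligos were lower and 43 pairs fell. Leaving out 1 library gave 75 to 188 lower oligos, 55 to 150 pairs that rose, 16 to 24 that fell, and 1 to 8 soma-side regions. Soma-side regions numbered 2 when at least 10 tiles were required and 6 with a mean LR of at least 0.5 in size. With upper-quartile scaling 61 oligos had a lower LR in knockout cells, and the class medians, here on the log2(CPM + 1) scale, moved from -0.0078 to -0.0268 without a motif, from -0.0015 to -0.0206 with one and from 0.0030 to -0.0161 when mutated. The median R of lower motif tiles was 3.70 at 50 nM in place of 5.48 at 500 nM, and 6.03 with at least 100 input reads, an alternative chosen after seeing the data. The cause of these shifts was not tested, beyond the looser threshold and the smaller number of libraries themselves. Of the LRs of named oligos under alternatives, 1288 kept their call, 74 lost it and 1 gained it; of their changes on mutation, 124 kept the call and 12 lost it. No value with a call changed its direction.

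Whether the replicate numbers pair the samples is not said in the labels. The study's methods take both fractions from the same membranes. Deviations of same-numbered neurite and soma libraries correlated at -0.066, -0.083, 0.011 and 0.10 over 11343 oligos. No neurite library correlated best with the soma library of its own number. Neurite replicate 4 came close, at 0.101 with soma replicate 4 and 0.103 with soma replicate 3. Such weak correlations cannot exclude a pairing. With a replicate block 324 oligos were higher and 124 lower, 90 pairs rose and 19 fell, 608 oligos had a higher LR with doxycycline and 30 a lower one, and there were 9 neurite-side and 7 soma-side regions. Depth limits single tiles: Soga3 tile 50, at 64 to 145 UMIs per library, had an SE of 0.12, against a median SE of 0.058.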
